A study of Bos taurus with 8 samples.

Results

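Ketone body metabolism was described here through 4 genes, ACAT1, BDH1, BDH2 and OXCT1, taken as every probe whose gene name in the scanner files is one of these. Each gene had 1 probe, so the members are 4 of 14964 gene names on the array. All 4 had the well-above-background flag on 4 or more of the 8 arrays and were tested, as were 10236 of 15008 probes in all. The members were not chosen by the diet comparison, though earlier results of these data were known when they were chosen.

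Rumen epithelium RNA from 4 Holstein bull calves, numbered 21, 23, 24 and 25, was measured on 8 single-colour Agilent arrays, 1 for each calf and diet. The WP diet was a high-grain diet in which wood kraft pulp took the place of part of the corn flakes, and the control diet was the same high-grain diet with all of its corn flakes. Both groups therefore share the high-grain feeding. The series text describes rumen-fistulated bulls of 215.2 ± 20.4 kg and 7.4 ± 0.3 months, crossed over between the diets after 14 days with no wash-out. Carry-over from the first diet was not tested, since which diet came first for which calf is not given in the labels used here.

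Ketone bodies are made in mitochondria from acetyl-CoA. ACAT1 joins acetyl-CoA units to acetoacetyl-CoA, acetoacetate is made from this, and BDH1 reduces acetoacetate to 3-hydroxybutyrate. To use ketone bodies, a tissue runs BDH1 and ACAT1 the other way, with OXCT1, the succinyl-CoA transferase, activating acetoacetate in between. In fed ruminants the rumen epithelium is known for making ketone bodies out of absorbed butyrate and releasing them to the blood.

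The probes are 60-base oligonucleotides of the array design, and the first 30 bases of each are shown so that it is clear which piece of transcript each value comes from. All bases are in lower case, since none is singled out.
ACAT1: catttgctgaagctgctgtaaaacctattg
BDH1: ggcaaacatggtgcatctgtctttctggag
BDH2: cgggacatcaaggaaaatgaaaccttttga
OXCT1: ctaacatccaaccaagaagttgcctttata
The design places the BDH1 probe on the minus strand at chr1:72573002-72573061, the BDH2 probe on the plus strand at chr6:23077244-23077303 and the OXCT1 probe on the plus strand at chr20:32848664-32848723, all on UMD 3.1. It leaves the ACAT1 probe unmapped. The exon or UTR of each probe was not analysed here. The ACAT1, BDH1 and OXCT1 probes carry accessions that RefSeq lists for these genes, whereas the BDH2 probe was designed on an expressed sequence tag and has its gene name from the array design alone.

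The tissue label was checked against epithelial markers. Of 10 stratified epithelium markers with a probe, 9 were tested, and the keratins KRT5, KRT14, KRT15 and KRT6A were well above background on all 8 arrays, while KRT4 was so on 1 WP array and on 0 control arrays. Of 4 genes listed as liver markers, ALB passed that mark on 1 array of each diet and CPS1 on 0 WP arrays and 1 control array, whereas TTR did so on 2 WP and 4 control arrays and APOA2 on all 8 arrays, at mean levels of 2.16 ± 0.24 on the WP diet and 2.30 ± 0.34 on the control diet (log2, SD, n = 4 each). Across arrays, 62.1% to 79.9% of probes were well above background. The WP array of calf 24 had the highest share and stood apart: the median signal over its negative control spots was 4.06, against 1.20 to 1.90 on the other 7 arrays. Its median over the control spots named E1A was 40.7, against 1.36 to 1.97 on the other 7 arrays.

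BDH1 and ACAT1, the enzymes that work in both directions, had strong signals on every array, and the OXCT1 and BDH2 probes had weak ones. Processed signals ran from 17404 to 29688 for BDH1, from 2749 to 4113 for ACAT1, from 11.4 to 30.1 for OXCT1 and from 8.70 to 18.7 for BDH2. These ranges place each probe against background only, because probes differ in how brightly they report a transcript, so signals of different probes were not ranked as transcript amounts. BDH1, ACAT1 and OXCT1 were well above background on 8 of 8 arrays. BDH2 was so on 3 WP arrays and 4 control arrays, the exception being the WP array of calf 24, where it had its highest value.

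The diets were compared on a log2 scale on which the 75th percentile of an array's probes is 0. In the limma fit that blocks on calf, 0 of 4 members and 0% of all 10236 probes tested passed an adjusted p of 0.05. At an unadjusted p under 0.05 there were 0 members, and 715 probes, or 6.99%, over the array. With 4 calves, the smallest two-sided p of an exact sign-flip test is 0.125, so the limma test alone is given. In each of the 4 members the WP and control values overlapped, while 4.84% of all probes had values that did not overlap, 3.65% with WP above control and 1.18% with WP below. Likewise 0 members went one way in all 4 calves, against 17.3% of probes, 11.9% of them higher and 5.39% lower on the WP diet.

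ACAT1, the thiolase that forms or splits acetoacetyl-CoA and also serves isoleucine breakdown, had levels of 4.07, 3.77, 3.85 and 3.74 on the WP diet in calves 21, 23, 24 and 25, against 3.45, 3.74, 3.78 and 4.25 on the control diet. The WP values lay inside the control range, whose 2 ends were calves 21 and 25. The means were 3.86 ± 0.15 on the WP diet and 3.80 ± 0.33 on the control diet (SD, n = 4 each). The difference was 0.05 ± 0.46 log2 (SD of within-calf differences, n = 4), a fold of 1.04 with a 95% interval from 0.722 to 1.49 (adjusted p = 0.941 in limma). Calf 21 was higher on the WP diet by 0.61 and calf 25 lower, at -0.51, and calves 23 and 24 gave 0.03 and 0.07. Without calf 21 the difference was -0.14, and without calf 25 it was 0.24.

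BDH1, the mitochondrial dehydrogenase between acetoacetate and 3-hydroxybutyrate, had levels of 6.65, 6.87, 6.49 and 6.38 on the WP diet in calves 21, 23, 24 and 25, against 5.75, 6.69, 6.66 and 6.68 on the control diet. Of the control values, 3 lay between 6.66 and 6.69 and that of calf 21 lay far below them. The means were 6.60 ± 0.21 on the WP diet and 6.45 ± 0.46 on the control diet (SD, n = 4 each). The difference was 0.15 ± 0.54 log2 (SD, n = 4), a fold of 1.11 with a 95% interval from 0.739 to 1.67 (adjusted p = 0.832 in limma). It was positive in calves 21 (0.90) and 23 (0.18) and negative in calves 24 (-0.17) and 25 (-0.30). Without calf 21 it was -0.10.

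OXCT1, the enzyme that commits acetoacetate to use as fuel, had levels of -3.88, -3.93, -3.67 and -3.94 on the WP diet in calves 21, 23, 24 and 25, against -3.42, -4.66, -4.28 and -4.15 on the control diet. The WP values were close together and the control values spread over 1.24 log2, with calf 21 at the top. The means were -3.86 ± 0.13 on the WP diet and -4.13 ± 0.52 on the control diet (SD, n = 4 each). The difference was 0.27 ± 0.54 log2 (SD, n = 4), a fold of 1.21 with a 95% interval from 0.803 to 1.82 (adjusted p = 0.710 in limma). Calves 23, 24 and 25 were higher on the WP diet by 0.73, 0.62 and 0.21, and calf 21 was lower at -0.47. Without calf 21 the difference was 0.52 (unadjusted p = 0.0385, adjusted p = 0.938 in limma), without calf 23 it was 0.12 and without calf 24 it was 0.16. In the limma fit without calf 21, 480 of 10236 probes had an unadjusted p under 0.05. With quantile scaling the sign of the OXCT1 difference turned, to -0.42.

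BDH2, a cytosolic short-chain dehydrogenase named for activity on 3-hydroxybutyrate and linked in mammals to siderophore and iron handling, had levels of -4.05, -4.53, -3.93 and -4.04 on the WP diet in calves 21, 23, 24 and 25, against -4.89, -4.34, -4.44 and -4.28 on the control diet. The WP values of 3 calves lay above all control values, and calf 23 went the other way. The means were -4.14 ± 0.27 on the WP diet and -4.49 ± 0.28 on the control diet (SD, n = 4 each). The difference was 0.35 ± 0.44 log2 (SD, n = 4), a fold of 1.28 with a 95% interval from 0.900 to 1.81 (adjusted p = 0.662 in limma). The within-calf differences were 0.85, -0.19, 0.51 and 0.24 in calves 21, 23, 24 and 25. The difference was 0.19 without calf 21 and 0.53 without calf 23 (unadjusted p = 0.0467, adjusted p = 0.753 in limma for the latter). In the limma fit without calf 23, 544 of 10236 probes had an unadjusted p under 0.05. A fit without the calf block that left out the WP array of calf 24 gave 0.28. The BDH2 probe was not well above background on that array. With quantile scaling its sign turned, to -0.41.

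**Figure D1:**
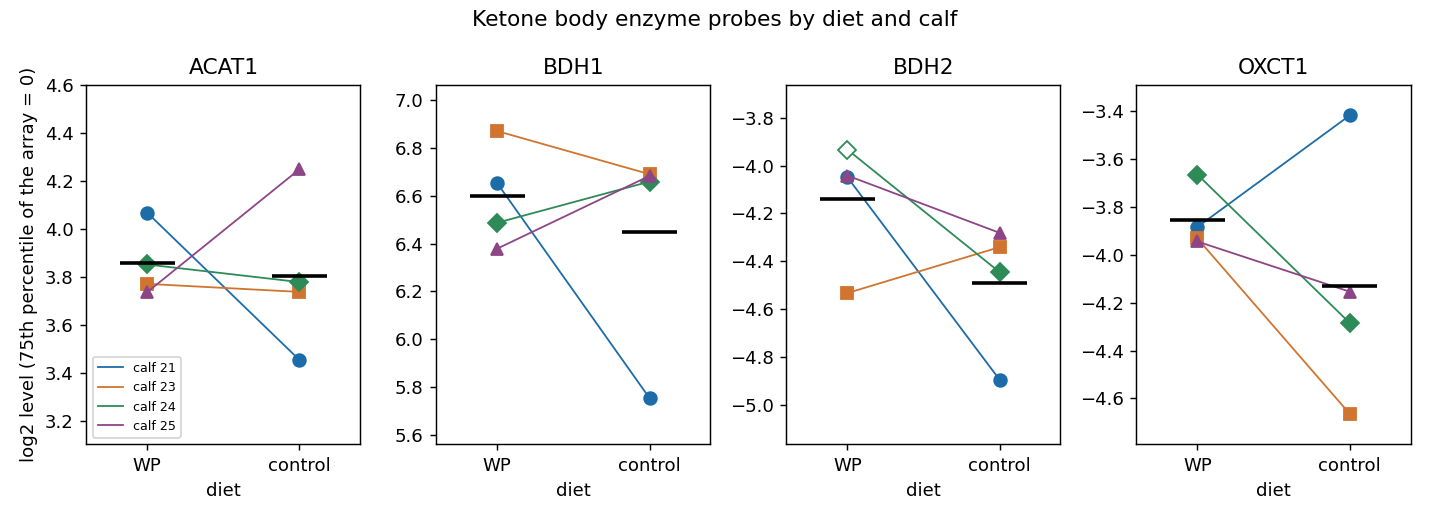
Level of each member (log2, with the 75th percentile of the array at 0) on the WP diet, left, and the control diet, right. Each line joins the 2 arrays of a calf, black bars are means of 4 arrays, the open symbol is the BDH2 value not well above background, and each panel spans the same log2 range. The control array of calf 21 has the lowest ACAT1, BDH1 and BDH2 values and the highest OXCT1 value.

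On the scaled levels, the control array of calf 21 gave the extreme value for all 4 members. ACAT1 (3.45), BDH1 (5.75) and BDH2 (-4.89) were at their lowest of the 8 arrays there, and OXCT1 (-3.42) at its highest. This array also had the highest 75th percentile, a processed signal of 322. Before scaling, BDH1 (17404) was still lowest there and OXCT1 (30.1) highest. The unscaled ACAT1 (3530) and BDH2 (10.8) signals were not the lowest, which were 2749 and 8.70 on the WP array of calf 23. Between calves, BDH1 averaged 6.20 over both diets in calf 21, and 6.78, 6.57 and 6.53 in calves 23, 24 and 25. OXCT1 had the reverse order at the ends, with -3.65 in calf 21 and -4.30 in calf 23. Measured against all probes, the members were neither among the most nor the least variable: the SD of within-calf differences was larger than that of 62.6% of tested probes for ACAT1, 69.3% for BDH1, 60.5% for BDH2 and 69.7% for OXCT1, and the median SD over all tested probes was 0.35.

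The differences also moved with the scaling factor of the arrays. The 75th percentile itself, as log2 processed signal, differed between WP and control by -0.70, -0.51, 0.02 and 0.15 in calves 21, 23, 24 and 25. Before scaling, BDH1 gave 0.20, -0.33, -0.16 and -0.15 in these calves, and ACAT1 gave -0.08, -0.48, 0.09 and -0.36. The unscaled OXCT1 differences were -1.16, 0.22, 0.63 and 0.36, and those of BDH2 were 0.15, -0.71, 0.53 and 0.39. With each array's median as the scaling point, the median difference of all probes was -0.15, against 0.09 with the 75th percentile, and ACAT1 (-0.19) and BDH1 (-0.09) had negative values. OXCT1 then gave 0.03 and BDH2 0.11, since median scaling moves every probe by the same amount.

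The arrays lay in 2 rows of 1 slide, and the WP arrays of calves 21 and 23 shared the first row with the control arrays of calves 24 and 25. Within row 1 the WP minus control differences were -0.09 for ACAT1, 0.09 for BDH1, 0.07 for BDH2 and 0.31 for OXCT1. Within row 2 they were 0.20, 0.21, 0.63 and 0.24. These values set different calves against each other. Between rows, BDH1 was 0.39 higher in row 1 than in row 2 with calf and diet in the model (unadjusted p = 0.0734, adjusted p = 0.419 in limma), more than its difference between diets. The part of slide row in the result was not tested beyond these values.

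The other genes of the pathway were taken from 7 lists with 61 genes, of which 58 had a probe and 49 were tested. Of these 49 genes, 0 rose and 0 fell at the adjusted threshold in limma, 29 had positive and 20 negative differences, and their median was 0.05 log2, beside a median of 0.09 and 64.4% positive over all tested probes. At an unadjusted p under 0.05 in limma there were 2, DBT and ACADSB, beside 6.99% of all tested probes. In all 4 calves, 5 of the 49 were higher and 1 was lower on the WP diet. Over all tested probes 11.9% were higher and 5.39% lower in all 4 calves.

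On the side of use, AACS, which activates acetoacetate in the cytosol for lipid synthesis, gave -0.27 ± 0.36 (SD, n = 4; adjusted p = 0.668 in limma), negative in 3 of 4 calves. OXCT2, a relative of OXCT1 known from testis, was well above background on 1 WP array and on 0 control arrays. That array was the one of calf 24, whose negative control spots were high, with a processed signal of 38.0 against 1.73 to 4.13 on the other 7 arrays.

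The cytosolic thiolase ACAT2 and synthase HMGCS1 serve early steps of sterol synthesis. ACAT2 gave -1.78, -0.78, 0.76 and 0.63 in calves 21, 23, 24 and 25, and HMGCS1 gave -1.57, -0.69, 0.15 and 0.23. Calves 21 and 23 were thus negative and calves 24 and 25 positive in both genes, the opposite sign to BDH1 in each calf. This split of the calves is also that of slide row. Calves 21 and 23 had their WP array in row 1 and control array in row 2, and calves 24 and 25 the reverse. The part of slide row in these signs was not tested. Both means, -0.29 ± 1.21 for ACAT2 and -0.47 ± 0.84 for HMGCS1 (SD, n = 4), missed the threshold (adjusted p = 0.844 and 0.678 in limma).

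Transport genes had 6 probes, of which 3 were tested. SLC16A1, the monocarboxylate transporter that carries ketone bodies and lactate, gave 0.30 ± 0.35 (SD, n = 4; adjusted p = 0.663 in limma), positive in 3 of 4 calves. BSG, its chaperone at the membrane, gave -0.07 ± 0.20 (SD, n = 4). With median scaling SLC16A1 gave 0.06 and BSG -0.31, and with quantile scaling BSG gave -0.01.

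Butyrate activation and beta-oxidation supply acetoacetyl-CoA. In this list 11 of 13 probes were tested, 9 differences were positive and 2 negative (3 and 8 with median scaling), and the median was 0.09, equal to that of all probes to 2 decimals. With median scaling both medians were -0.15. HADH, the short-chain hydroxyacyl-CoA dehydrogenase, had the smallest p of the list, at 0.28 ± 0.55 (SD, n = 4; adjusted p = 0.706 in limma; 0.04 with median scaling), with 0.97, 0.41, 0.06 and -0.31 in calves 21, 23, 24 and 25. The list's median went in the same order of calves, 0.42, 0.10, 0.06 and -0.30, with 10, 8, 8 and 1 of 11 genes positive, while the median of all probes was 0.12, 0.03, 0.14 and 0.00.

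**Figure D2:**
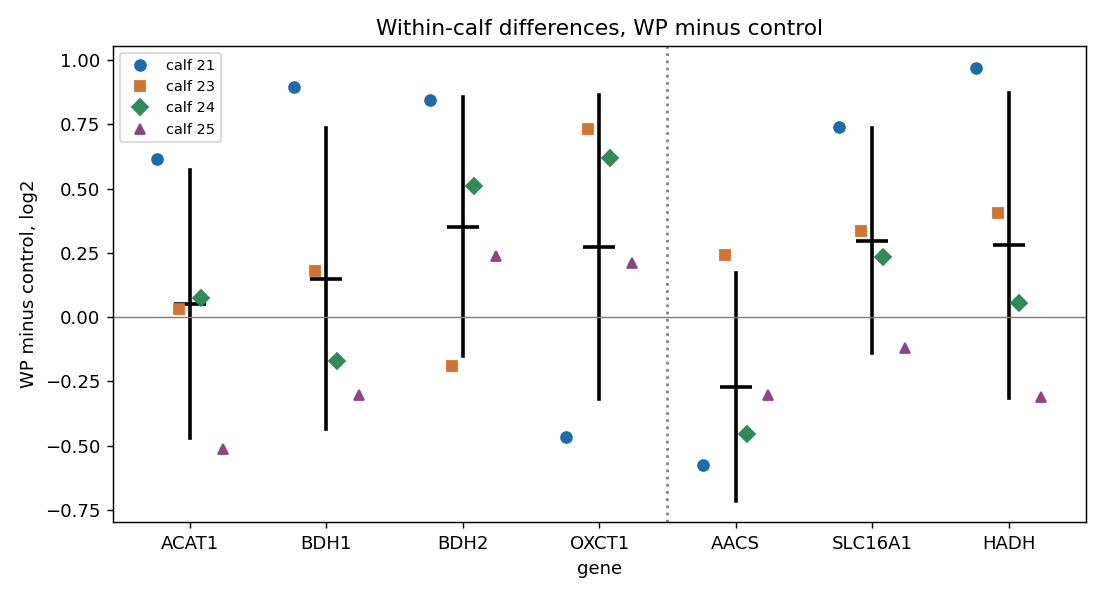
Within-calf differences, WP minus control in log2, for the 4 members, left of the dotted line, and 3 genes of neighbouring steps. Symbols are calves, black bars are means of 4 calves and vertical lines are 95% intervals of the limma fit. Every interval includes 0, and calf 21 lies at one end of the 4 values in each of these genes.

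Leucine and isoleucine breakdown, which ends in part at the ACAT1 reaction, had 8 of 9 probes tested, with 6 positive differences (4 with median scaling) and a median of 0.22 (-0.02 with median scaling). Over all tested probes 64.4% were positive and the median was 0.09 (-0.15 with median scaling). ACADSB, a short branched-chain acyl-CoA dehydrogenase of isoleucine breakdown, gave 0.46 ± 0.35 (SD, n = 4; unadjusted p = 0.0425, adjusted p = 0.658 in limma) and was positive in 4 of 4 calves. DBT, a subunit of the branched-chain ketoacid dehydrogenase, gave 0.43 ± 0.35 (adjusted p = 0.658). With median scaling ACADSB gave 0.22 and DBT 0.19, and with quantile scaling DBT gave 0.25. The citric acid cycle, the source of succinyl-CoA for OXCT1, had 17 of 17 genes tested, 12 of them negative (17 with median scaling), with a median of -0.08 (-0.32 with median scaling). Median scaling moves every probe by the same amount, so the count of 17 adds nothing to that of 12. SDHA, a subunit of succinate dehydrogenase, was negative in 4 of 4 calves at -0.29 ± 0.16 (SD, n = 4; adjusted p = 0.658 in limma).

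Regulators and receptors had 7 tested genes, all 7 with positive differences (5 with quantile or with median scaling) and a median of 0.37 (0.23 with quantile and 0.13 with median scaling). Over all tested probes 64.4% were positive and the median was 0.09 (-0.02 with quantile and -0.15 with median scaling). FOXA2, a transcription factor of hepatic ketogenesis in mice, gave 0.54 ± 0.51, and SIRT3, a mitochondrial deacetylase, 0.37 ± 0.31 (SD, n = 4; adjusted p = 0.658 for each in limma). With median scaling FOXA2 gave 0.29 and SIRT3 0.13, and with quantile scaling FOXA2 gave 0.32. Both were positive in 4 of 4 calves, as were 11.9% of all tested probes. Both had their largest difference in calf 24, at 1.21 and 0.73, the calf with the high negative-control signal on its WP array. Processed signals ran from 20.7 to 66.9 for FOXA2 and from 678 to 1467 for SIRT3. The part of that array's background in these differences was not tested.

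Co-variation of the members over the 8 arrays is given as a description without p-values, because the arrays come in pairs from 4 calves and share their scaling. ACAT1 and BDH1 had Pearson's r of 0.624 and Spearman's rho of 0.357, and without the 2 arrays farthest from the ACAT1 median r was 0.0378. BDH1 and OXCT1 had r of -0.659 and rho of -0.619, with r from -0.754 to -0.319 on leaving out each array. ACAT1 and BDH2 had r of 0.572 and BDH1 and BDH2 0.443, which became 0.187 and -0.811 without the control array of calf 21. OXCT1 had r of -0.286 with ACAT1 and -0.153 with BDH2, and both turned positive without that array, to 0.170 and 0.567. Of the 6 pairs, 3 kept their sign with any 1 array left out, namely ACAT1 with BDH1, ACAT1 with BDH2, and BDH1 with OXCT1.

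For each member the most similar genes over 8 arrays were searched among 8568 named genes, each well above background on all arrays. Nearest to BDH1 were SDR39U1 (r = 0.994), the basal keratin KRT15 (0.982) and VPS11, a subunit of endosomal tethering complexes (0.973), and GMPPA was most opposite (-0.969). KRT15 had levels of 6.58, 6.95, 6.49 and 6.42 on the WP diet in calves 21, 23, 24 and 25, against 5.84, 6.59, 6.63 and 6.68 on the control diet, so its low point too was the control array of calf 21. Without that array r between BDH1 and KRT15 was 0.933. Within the pathway lists the highest values for BDH1 were r of 0.956 with HADH, 0.952 with ACSS2, 0.949 with CPT2 and 0.935 with HADHB, against a median of 0.0384 with all tested probes. Each of these genes was, like BDH1, at its lowest on the control array of calf 21, at 5.79, 1.21, 2.91 and 0.91. Their r without that array was not computed. The lowest r values were -0.827 with ACAT2 and -0.774 with HMGCS1, and in the same list as HADH the values went down to -0.685, with ACSS1.

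Nearest to ACAT1 were SERHL2 (0.979), the adrenergic receptor ADRA2A (0.965) and MGST3, a microsomal glutathione transferase (0.954), and NFYB, a subunit of a CCAAT-binding factor, was most opposite (-0.930). OXCT1 lay nearest to KCNK12 (0.955), FBXO4 (0.954) and the immunoproteasome subunit PSMB10 (0.933), with the transcription factor KLF3 opposite (-0.928). BDH2 lay nearest to MYNN (0.977), GPD1, the cytosolic glycerol phosphate dehydrogenase (0.953), and CRYBA1 (0.945), with PRKAR1A, a regulatory subunit of protein kinase A, opposite (-0.941). A search over that many genes and 8 arrays returns high values for any probe, so these names are a description.

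Across arrays, the summed fibroblast marker signal moved with OXCT1 and against ACAT1 and BDH1, and with BDH2 in no steady direction. A leukocyte sum also moved against ACAT1 and BDH1, while its r with OXCT1 was 0.0209 without the 2 arrays farthest from the median. The summed signal of the 8 fibroblast markers, all 8 of them tested and 7 with positive differences under each scaling, was 4.17 to 5.42 on WP arrays and 3.30 to 5.29 on control arrays (log2), and the control array of calf 21 had the highest control value. Such a sum adds unlogged signals, so the brightest genes weigh most. These were COL3A1 and COL1A2, with mean levels of 3.56 and 2.95 on the WP diet, against 1.46 for DCN, the next. In calf 21 the WP minus control differences were -1.44 for COL3A1 and -1.49 for COL1A2. POSTN alone of the 8 was positive there, at 1.18. Over all tested probes 64.4% had positive differences, and no fibroblast marker passed the adjusted threshold. No fibroblast marker lacked signal throughout, and PDGFRA passed the background mark on 3 WP and 2 of the control arrays. Over 8 arrays the fibroblast sum had r of 0.745 with OXCT1 (rho 0.643, and 0.820 without the 2 arrays farthest from the median), -0.655 with BDH1 (rho -0.714, and -0.835), -0.653 with ACAT1 (rho -0.452, and -0.617) and -0.00238 with BDH2 (0.570 without the control array of calf 21). OXCT1 and BDH1 therefore ran in opposite directions along the same marker sum, and both kept their sign with any 1 array left out. By slide row, the fibroblast sum ran from 3.30 to 4.31 in row 1 and from 3.74 to 5.42 in row 2. The part of slide row in these r values was not tested.

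**Figure D3:**
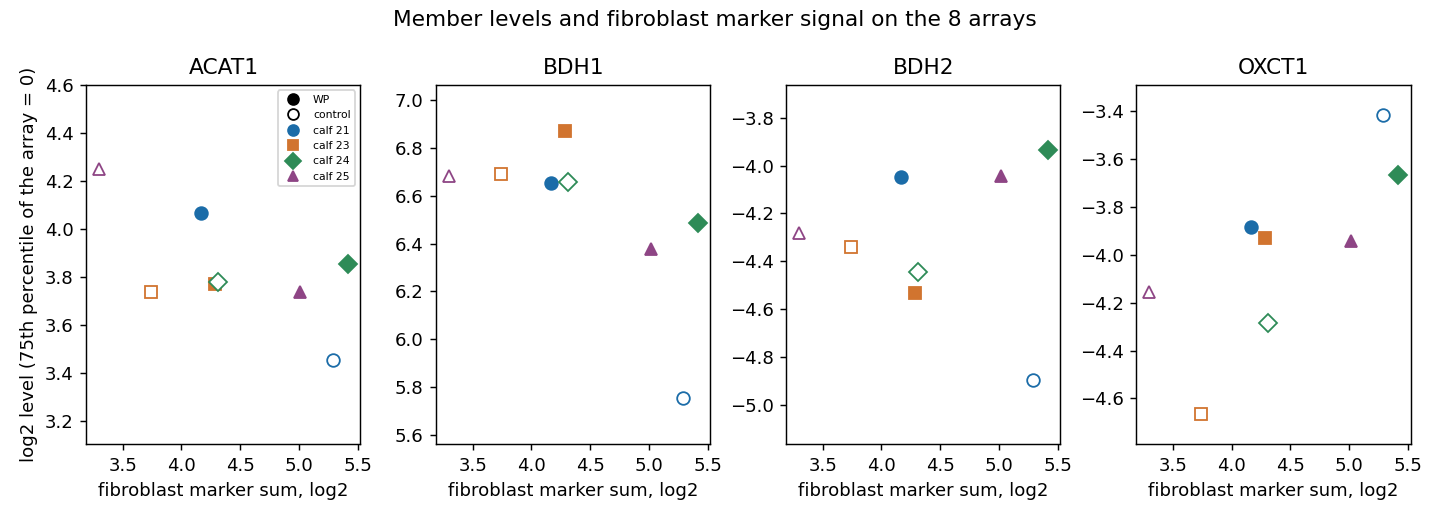
Level of each member (log2) against the summed signal of 8 fibroblast markers (log2) on the 8 arrays, with filled symbols for WP and open ones for control. BDH1 and ACAT1 are lower and OXCT1 is higher on arrays with a high fibroblast sum, and BDH2 has no such order. COL3A1 and COL1A2 weigh most in this sum.

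The leukocyte sum, from 5 tested markers of 8, ran from 1.12 to 1.96 on WP arrays and from 0.96 to 2.26 on control arrays, again with the control array of calf 21 at the top. CSF1R weighed most in this sum, with mean levels of 0.74 on the WP diet and 0.53 on the control diet. Those means were -1.01 and -0.78 for CD14 and -0.69 and -0.93 for CD68. PTPRC (-3.66 and -4.12) and CD3D (-4.81 and -4.57) added little, so the sum does not stand for all leukocytes. Of the 8, CD3E, CD79A and ITGAM were not tested, and ITGAM was well above background on 0 arrays. The sum had r of -0.804 with ACAT1, -0.802 with BDH1, 0.631 with OXCT1 and -0.249 with BDH2. Without the control array of calf 21 these were -0.660, -0.627, 0.381 and 0.494, and without the 2 arrays farthest from the median they were -0.819, -0.525, 0.0209 and 0.180. The summed level of 9 stratified epithelium markers ran from 8.77 to 9.35 on WP arrays and from 9.08 to 9.30 on control arrays, with r of -0.0560 with ACAT1, 0.327 with BDH1, -0.584 with OXCT1 and -0.573 with BDH2. Without the control array of calf 21 these were -0.121, 0.647, -0.694 and -0.924, and without the 2 arrays farthest from the median they were 0.467, 0.804, -0.580 and -0.0332. Of 6 endothelium markers 5 were tested, all 5 with positive differences (4 with median scaling) and a median of 0.53 (0.29 with median scaling), CDH5 being well above background on 0 arrays. Of 5 smooth muscle markers with a probe 3 were tested, all 3 with positive differences (2 with median scaling) and a median of 0.46 (0.20 with quantile and 0.22 with median scaling). The 5 tested leukocyte markers had 3 positive and 2 negative differences (1 and 4 with median scaling) and a median of 0.20. The 9 stratified epithelium markers had 4 positive and 5 negative (2 and 7 with median scaling) and a median of -0.02. Over all tested probes 64.4% were positive and the median was 0.09 (-0.15 with median scaling). No marker of these lists passed the adjusted threshold. The endothelium sum had r of 0.509 with OXCT1 and -0.182 with BDH1, and the smooth muscle sum 0.555 and -0.00486. The part of these markers in the diet differences of the members was not tested. In RNA from whole epithelium, fewer cells of a type and less RNA per cell cannot be told apart.

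**Figure D4:**
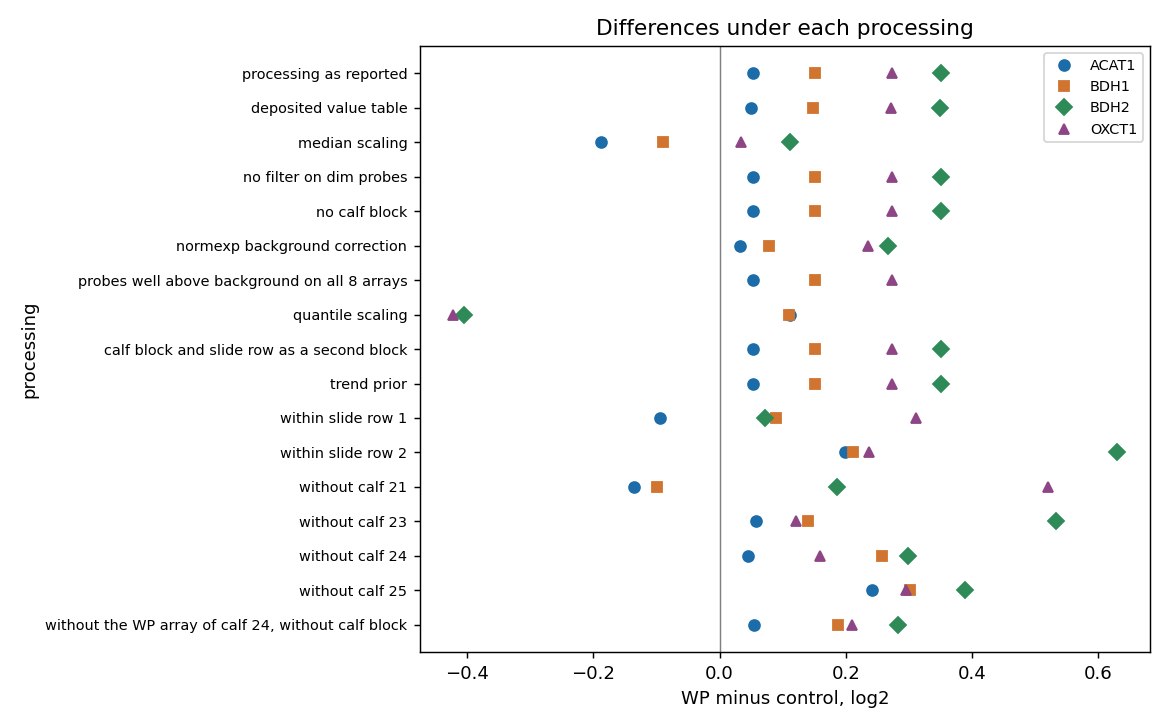
Difference of each member, WP minus control in log2, under each way of processing the arrays. OXCT1 and BDH2 turn negative with quantile scaling, at -0.42 and -0.41, and ACAT1 and BDH1 turn negative with median scaling and without calf 21.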

How the data were processed

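The authors' deposited files are scanner output with each spot's brightness as an intensity that Agilent Feature Extraction had corrected for background (version 11.0.1.1 per the file headers, while the submitters' processing notes name 9.5). Labelling with Cy3 started from 500 ng of RNA per the labels. The authors' deposited value table is on a log2 scale. Set against the scanner files, its columns had slopes of 1.00 on the logged processed signal and differed from it by an array constant (medians from -3.10 to -2.27); it was used as an alternative. The 8 arrays shared 1 slide and 1 scan, per the file headers.

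Here each array's processed signal was logged (base 2) and its 75th percentile subtracted. Left out were 536 control spots and 97 flagged outlier spots, and repeated spots of a probe were averaged. Probes with the well-above-background flag on 4 or more of the 8 arrays (10236 of 15008, 68.2%) were tested with limma 3.58.1 in R 4.3.3 (lmFit, eBayes, two-sided, calf as a block), adjusted by Benjamini-Hochberg over all of them. An SE or interval is that of the fit. The number of arrays limits the precision. The block comes from the cross-over design: the 2 arrays of a calf deviated from the diet means with r of 0.00897, 0.195, 0.0600 and 0.0475. Members and lists were chosen with earlier results of these data known. The genes named are the members, the 3 most similar genes and the most opposite one for each, SLC16A1 and AACS, and the gene of smallest p of each list; others named with them were chosen after their values were seen. One of the pathway lists is not reported here. Names come from RefSeq (ARS-UCD2.0) for 11194 probes matched by accession and otherwise from the array design. The fit was tested on simulated data.

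Alternatives covered normexp background correction (offset 50), quantile and median scaling, the value table, filters, the calf block, slide rows, the prior and each calf left out. Leaving out the WP array of calf 24, in a fit without the calf block, was added after seeing the data.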

Additional observations from a re-analysis of the deposited data

Results flagged for a closer look

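Of 81 groups of 4 values checked, 6 held a value far from the other 3, and chance flags about 1 in 20. BDH1 on the control diet was 5.75 in calf 21, against 6.66 to 6.69 in the other calves. On the same array SDR39U1 and KRT15, the genes most similar to BDH1, were low at 0.75 (others 1.46 to 1.50) and 5.84 (others 6.59 to 6.68), and GMPPA, its most opposite gene, was high at 1.56 (others 0.92 to 0.97). These 3 genes were picked for following BDH1, so they are not separate evidence. On the WP diet, GMPPA was 0.85 in calf 23 (others 1.02 to 1.04), and GPD1, one of the genes most similar to BDH2, was -3.97 in calf 23 (others -3.24 to -3.09).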

How the results depend on the processing

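No alternative gave a probe past the adjusted threshold in limma (0 in each of 16, with 429 to 1427 probes at an unadjusted p under 0.05), and no member passed in any. Filters, the calf block, slide row as a second block and the prior leave a probe's difference unchanged, so they could not turn its sign. The value table gave nearly the same differences. The counts of kept signs that follow include these settings. ACAT1 kept a positive difference in 13 of 16 alternatives and turned to -0.19 with median scaling, -0.095 within slide row 1 and -0.14 without calf 21. BDH1 kept its sign in 14 of 16 and turned to -0.090 with median scaling and -0.10 without calf 21. With quantile scaling BDH2 (14 of 15 kept) turned to -0.41 and OXCT1 (15 of 16 kept) to -0.42; both probes are dim. The cause of these turns was not tested. Leaving out each calf gave -0.14 to 0.24 for ACAT1, -0.10 to 0.30 for BDH1, 0.19 to 0.53 for BDH2 and 0.12 to 0.52 for OXCT1. Normexp background correction gave 0.03, 0.08, 0.27 and 0.24 for ACAT1, BDH1, BDH2 and OXCT1. Without the calf block the differences were the same (0.05, 0.15, 0.35 and 0.27), 0 probes were called, and no call changed. BDH2 has no value with probes well above background on all 8 arrays, which it does not meet, and other probes of a gene were not run because each member has 1. Signals of OXCT1 and BDH2 near background limit what their differences can show.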
